A study of Mus musculus with 6 samples.

Results

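Semaphorins are guidance proteins and plexins are their receptors, and 10 genes of these families were followed in endothelial cells (EC) sorted from mouse lung: the semaphorins Sema3c, Sema3f, Sema3g, Sema5a, Sema6a and Sema7a and the plexins Plxna2, Plxnb1, Plxnb2 and Plxnd1. They were picked by symbol from the 12623 genes of an RNA-seq table, in which 22 genes were semaphorins, plexins or neuropilins. The table held 6 libraries from C57BL/6N mice, 3 from infant mice (8 to 10 days old) and 3 from young adult mice (8 to 12 weeks old), described as independent biological replicates of each age. The labels name no transgene and no treatment for either group. According to the study's methods, living cells positive for CD31 and CD34 and negative for PTPRC, LYVE1, LY76 and PDPN were sorted, a gate meant to remove leukocytes, lymphatic EC and erythroid cells. Transcripts of all 3 were still measured, with marker sums given in the closing section. Values are RPKM, reads scaled to the length of the transcript and to all mapped reads. Between libraries they can be set side by side only as far as the make-up of the RNA is alike. Here it differed in globin share, and results under other scalings are given below.

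Semaphorins were first known as cues that repel growing axons, and in blood vessels they steer sprouting and restrain the spread of EC. Secreted class 3 semaphorins reach plexins of the A and D type mostly through the neuropilins, which hold the ligand, whereas membrane-bound semaphorins of the other classes bind plexins directly. The cytoplasmic part of a plexin switches off small GTPases of the R-Ras and Rap type and thereby loosens the hold of integrins on the matrix, and B type plexins also couple to RhoA activators. In EC, Plxnd1 is the plexin best known for vessel patterning.

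The libraries did not differ by age alone. Infant libraries held transcripts of the Y-linked genes Ddx3y (16.5 to 21.9 RPKM) and Uty (4.3 to 6.4 RPKM), both at 0.0 RPKM in each young adult library, so that age and the sex make-up of the animals cannot be told apart. The X-linked gene Xist measured 7.6 to 8.7 RPKM in the infants against 12.5 to 15.6 RPKM in the young adults. Each infant library thus held Xist beside the Y-linked transcripts. The study's methods name female mice. No described gene lies on a sex chromosome. Globin genes made up 3.41% to 23.5% of summed RPKM in the infants against 0.307% to 0.487% in young adult libraries. The 12 endothelial markers, led by the sort antigen Pecam1 and by Cdh5, summed to 3447 to 5038 RPKM in the infants against 5370 to 5897 RPKM in the young adults, and 1 of the 12 was called. Fibroblast markers fell in 9 of 10 cases, from sums of 335.5 to 1291 RPKM in infant libraries to 10.4 to 24.0 RPKM in the young adults, with the lowest infant sum in replicate 2. In bulk RNA, fewer cells of a type and less RNA per cell cannot be told apart.

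The stretches in front of the genes that changed with age are shown first, because 1 of them was higher and 3 were lower in young adult EC. Each is the 250 bases before a start of the gene in the RefSeq promoter table for GRCm38.p6, written 5′ to 3′ on the strand of the gene, with the GC box (GGGCGG or its reverse complement CCGCCC, a binding motif of Sp1 type factors) in capitals. Sema3g is read from chr14:31217623-31217872 on the plus strand, Sema5a from chr15:32244563-32244812 on the plus strand, and Plxnb2 from chr15:89180789-89181038 on the minus strand. The positions given below are those of the whole RefSeq gene. For Plxnb1, Plxnb2, Plxnd1 and Sema7a the gene begins upstream of the window, so that the window lies inside the gene. Of the 2 starts listed for Plxnb2, the upstream one is printed.
Sema3g: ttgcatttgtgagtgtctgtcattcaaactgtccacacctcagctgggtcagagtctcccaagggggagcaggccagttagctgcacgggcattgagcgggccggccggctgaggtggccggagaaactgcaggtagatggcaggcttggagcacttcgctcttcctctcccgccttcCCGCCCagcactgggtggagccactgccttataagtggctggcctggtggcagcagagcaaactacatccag
Sema5a: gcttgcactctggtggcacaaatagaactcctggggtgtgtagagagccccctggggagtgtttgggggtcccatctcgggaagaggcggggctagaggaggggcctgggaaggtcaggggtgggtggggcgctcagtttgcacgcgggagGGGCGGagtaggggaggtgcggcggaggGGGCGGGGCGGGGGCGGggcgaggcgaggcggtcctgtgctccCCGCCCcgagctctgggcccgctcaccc
Plxnb2: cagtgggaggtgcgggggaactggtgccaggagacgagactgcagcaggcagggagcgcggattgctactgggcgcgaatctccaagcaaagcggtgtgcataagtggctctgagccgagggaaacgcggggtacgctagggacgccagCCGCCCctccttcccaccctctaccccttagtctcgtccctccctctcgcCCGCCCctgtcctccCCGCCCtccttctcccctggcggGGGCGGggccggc
The window of Sema3g, the gene that was higher in young adults, held 1 GC box and 8 CG dinucleotides at a GC content of 60.4%. The window of Sema5a held 5 GC boxes and 17 CG dinucleotides at 72.0% GC, and that of Plxnb2 held 4 GC boxes and 20 CG dinucleotides at 69.2% GC. The downstream start of Plxnb2 had 3 GC boxes, 13 CG dinucleotides and 63.6% GC in its window. Plxnb1, the other gene that was lower, had 4 GC boxes and 30 CG dinucleotides in its window (75.2% GC), which is not printed because 47 of its bases lie in an annotated exon of the gene. All 250 bases of the Plxnb1 window also lie in an exon of the antisense gene Gm7628 on the opposite strand. Over 32851 mouse promoters of the same length, the median was 6 CG dinucleotides and 52.4% GC, and 32.7% held a GC box, counted on both strands with overlapping matches kept. All 8 described genes with an entry in the promoter table had at least 1 GC box, and Sema3f and Sema6a had no entry. Among the genes not called, the Sema3c window held 3 GC boxes and 39 CG dinucleotides at 78.4% GC. The Plxnd1 window held 1 and 16 at 64.8% GC, that of Sema7a 2 and 17 at 66.4%, and that of Plxna2 2 and 18 at 62.8%. Whether such counts go with the direction of change was not tested. Neither the E-box CACGTG (6.0% of all promoters) nor the TATA box TATAAA (12.4%) was found in these windows, and the ETS core CCGGAA (12%) stood only in that of Plxnb1, with 2 matches. In the GENCODE annotation, the last 13 bases of the Sema3g window and the last 3 of the Sema5a window already belong to an exon of the gene, and an exon of the non-coding RNA Snhg18 shares 100 bases with the Sema5a window on the opposite strand. The windows of Sema3c and Plxna2 lie with all 250 bases in an exon of their own gene. A match in these letters describes the sequence and is no evidence of binding.

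Of the 10 genes, 1 was called higher and 3 were called lower in young adult EC, where a call required an adjusted p under 0.05 in limma's test on log2(RPKM + 1) and a fold change over 1.75. Sema3g rose, and Sema5a, Plxnb1 and Plxnb2 fell. Over all 12458 genes tested, 3.33% were called higher and 8.10% lower. In 5 of the 10 genes the adjusted p was under 0.05, against 25.5% of all genes, and in 7 of the 10 the infant and young adult libraries did not overlap, against 43.4% of all genes. The median log2 fold change was -0.28 over the 10 genes and -0.07 over all genes tested. With so few genes, these shares describe the genes and were not tested as a set.

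**Figure D1:**
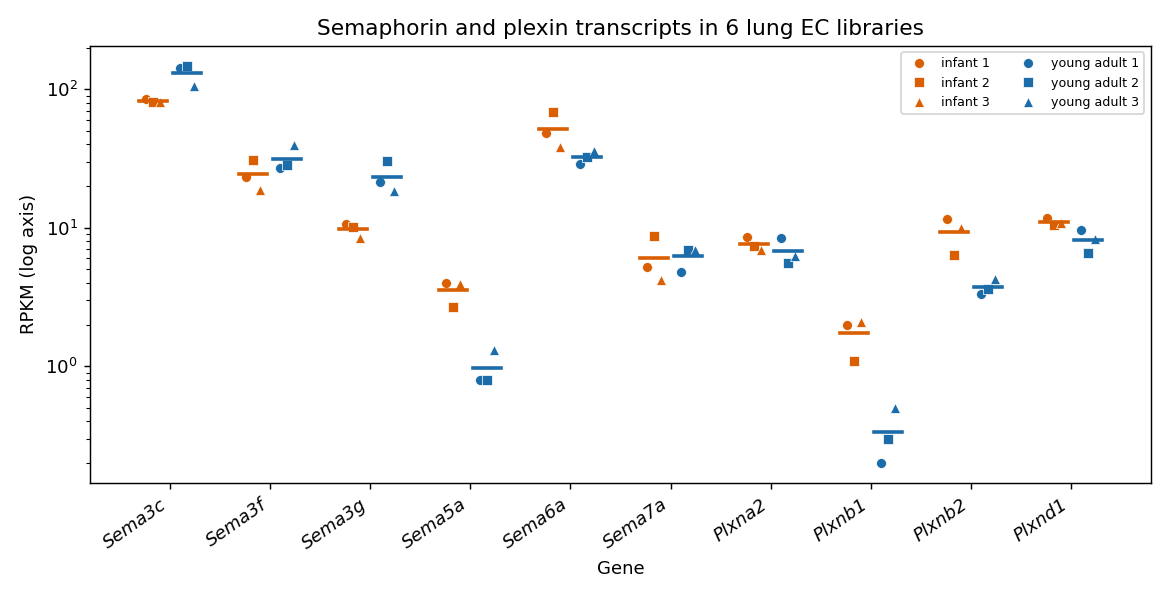
RPKM of the 10 described genes in each of the 6 libraries, on a log axis, with infant libraries in orange, young adult libraries in blue and a bar at each group mean. Sema3g sits higher in the 3 young adult libraries, whereas Sema5a, Plxnb1 and Plxnb2 sit lower in all 3, and infant replicate 2 (square) is the lowest infant library for these 3 genes.

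Among the secreted ligands, Sema3c was the most abundant transcript of the described genes at both ages. It encodes a class 3 semaphorin that signals through neuropilins and through Plxnd1 or A type plexins and is known from outflow tract and lung development. Sema3c (NM_013657, chromosome 5, 17574816 to 17730268) measured 84.6, 80.4 and 81.3 RPKM in the infants (replicates 1 to 3 in this and all later lists) against 142.3, 147.6 and 105.2 RPKM in the young adults. The infant libraries lay within a few RPKM of each other, and all young adult libraries were above them. The ratio of the means was 1.60 and the log2 fold change 0.66 ± 0.15 (SE, limma adjusted p = 0.0176), which is under the fold threshold. Without young adult replicate 3, the lowest of its group, Sema3c was called at 0.81. Without infant replicate 1 or 3, or young adult replicate 1 or 2, the limma adjusted p was 0.0522 to 0.0769, at 0.57 to 0.68. Rescaling without the globin genes gave 0.465 (limma adjusted p = 0.0768).

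Among the described ligands, Sema3g was the one that rose by more than the fold threshold on the log2(RPKM + 1) scale. It is a class 3 semaphorin made by EC, chiefly arterial, that binds the neuropilins, Nrp2 above all. Sema3g (NM_001025379, chromosome 14, 31217873 to 31230352) measured 10.6, 10.2 and 8.5 RPKM in the infants against 21.5, 30.2 and 18.4 RPKM in the young adults. Every young adult value was above every infant value, and the spread among young adults (SD 6.12 RPKM) was wider than among infants (SD 1.12 RPKM). The log2 fold change was 1.15 ± 0.18 (limma adjusted p = 0.00533), with a 95% interval of 0.74 to 1.57, and the call was kept in 6 of 6 fits that each left out 1 library, at 0.96 to 1.30. Summed arterial markers, 233.6 to 266.9 RPKM in the infants against 229.5 to 309.9 RPKM in the young adults, overlapped between the ages, whereas general capillary markers summed to 543.7 to 852.0 RPKM in the infants against 1046 to 1325 RPKM in the young adults. Venous markers did not overlap either, at 67.8 to 80.3 RPKM in the infants against 200.8 to 300.6 RPKM in the young adults. The part of these EC subtypes in the rise of Sema3g was not tested.

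Sema3f, a class 3 semaphorin that prefers Nrp2 and is known to inhibit the growth of vessels and tumours, did not pass the test. Sema3f (NM_011349, chromosome 9, 107681499 to 107710475) measured 23.3, 31.0 and 18.7 RPKM in the infants against 26.8, 28.4 and 39.6 RPKM in the young adults. The groups overlapped through infant replicate 2. Its log2 fold change was 0.37 ± 0.21 (limma adjusted p = 0.216), and the 95% interval from -0.11 to 0.85 includes both no difference and a rise past the fold threshold.

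Among the membrane-bound ligands, Sema5a was the one called. It encodes a transmembrane semaphorin whose outer part carries thrombospondin repeats, and its fall was the largest of the 10 genes on the log2(RPKM + 1) scale. Sema5a (NM_009154, chromosome 15, 32244813 to 32696341) measured 4.0, 2.7 and 3.9 RPKM in the infants against 0.8, 0.8 and 1.3 RPKM in the young adults. No young adult library reached the lowest infant library, which was replicate 2. The log2 fold change was -1.20 ± 0.17 (limma adjusted p = 0.0039), the mean level was 3.65-fold higher in infants, and the call was kept in 6 of 6 fits without 1 library.

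Sema6a is a transmembrane semaphorin that binds Plxna2 and Plxna4 and guides axons and migrating cells. It was the next most abundant ligand after Sema3c in infant EC. Sema6a (NM_018744) measured 48.0, 68.8 and 38.3 RPKM in the infants against 28.7, 32.4 and 35.8 RPKM in the young adults. The groups did not overlap, but the highest infant value, in replicate 2, was far above the others and the gap between infant replicate 3 and young adult replicate 3 was small. The log2 fold change was -0.63 ± 0.20 (95% interval -1.10 to -0.16, limma adjusted p = 0.0574), so Sema6a was not called. It was called without infant replicate 3, at -0.82, and when libraries were rescaled without the globin genes, at -0.82 (adjusted p = 0.00892), which made 4 described genes called lower.

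Sema7a is held to the membrane by a lipid anchor and signals through Plxnc1 and through integrins with the beta1 chain. Sema7a (NM_011352, chromosome 9, 57939596 to 57962865) measured 5.2, 8.7 and 4.2 RPKM in the infants against 4.8, 6.9 and 6.9 RPKM in the young adults. The infant libraries spanned the whole young adult range. The log2 fold change was 0.07 ± 0.24 (limma adjusted p = 0.85), with a 95% interval from -0.48 to 0.62, and its sign turned when any of 3 libraries was left out and under 2 of the scalings.

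The proportions among the ligands were compared as well. All 13 semaphorin genes of the table summed to 206.4 ± 24.0 RPKM (SD, n = 3) in the infants against 254.1 ± 18.7 RPKM in the young adults. Sema3c and Sema6a together supplied 64.9 ± 0.91% of that sum in infants and 64.4 ± 3.81% in young adults. Taken singly, Sema3c supplied 40.2 ± 4.89% of the sum of all 13 genes in infants and 51.6 ± 5.95% in young adults. Sema6a supplied 24.7 ± 4.64% of it in infants and 12.8 ± 2.14% in young adults. The Sema6a share, 21.1% to 29.9% in infant and 11.2% to 15.2% in young adult libraries, did not overlap between the ages, and neither did the Sema3c share, of which the highest infant value (44.7%) lay just below the lowest young adult value (44.8%). The share of Sema3g was 4.74 ± 0.34% in infants and 9.12 ± 1.73% in young adults. The scaling of a library cancels in these shares, which are given without a test.

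**Figure D2:**
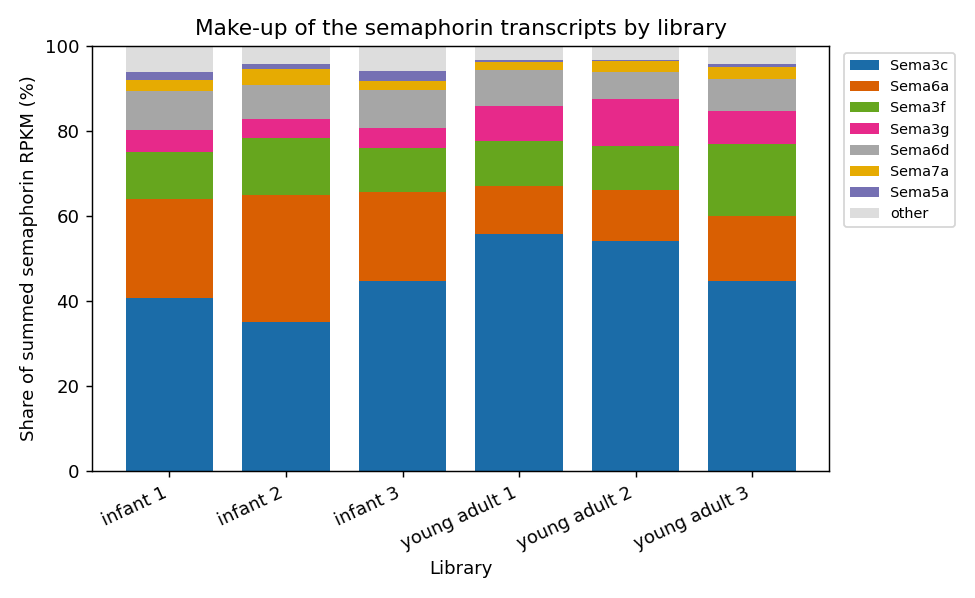
Share of the summed semaphorin RPKM, in percent, taken by each semaphorin in each of the 6 libraries, with the other 6 semaphorin genes pooled. Sema3c and Sema6a together fill 60.0% to 67.0% of every library, and the Sema6a part is smaller in the 3 young adult libraries.

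Both B type plexins among the described genes fell. Plxnb2, a receptor for class 4 semaphorins that is also known to bind angiogenin, was the third most abundant plexin in infant EC. Plxnb2 (NM_001159521, chromosome 15, 89155546 to 89182018) measured 11.6, 6.4 and 10.0 RPKM in the infants against 3.3, 3.6 and 4.3 RPKM in the young adults. The groups did not overlap, and infant replicate 2 lay between the other infant libraries and the young adults. The log2 fold change was -1.10 ± 0.20 (limma adjusted p = 0.00913), and the mean was 2.5-fold higher in infants. A further transcript row of the gene, NM_138749, gave values within 0.1 RPKM of these in every library.

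Plxnb1, the receptor of Sema4d, was the rarest of the described transcripts. Plxnb1 (NM_172775, chromosome 9, 109093849 to 109119915) measured 2.0, 1.1 and 2.1 RPKM in the infants against 0.2, 0.3 and 0.5 RPKM in the young adults. All young adult values were below the lowest infant value, and at these levels the rounding step of the table, 0.1 RPKM, is a large part of a young adult value. The mean was 5.2-fold higher in infants, and the log2 fold change, which the pseudocount of 1 pulls towards 0, was -1.02 ± 0.19 (limma adjusted p = 0.0103). Plxnb1 reached 1 RPKM only in the infants and thus entered the test through the group where it was higher. Without a filter on low values it was still called, at -1.02 (limma adjusted p = 0.00997). The antisense gene Gm7628 covers 2.68% of the exon bases of Plxnb1, and reads of both cannot be told apart in libraries without strand. The calls of Plxnb1 and Plxnb2 were kept in 6 of 6 fits without 1 library.

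Plxnd1 and Plxna2 were not called. Plxnd1 (NM_026376, chromosome 6, 115954811 to 115995339) measured 11.7, 10.5 and 10.9 RPKM in the infants against 9.6, 6.6 and 8.3 RPKM in the young adults. All 3 infant values were above all 3 young adult values, and the log2 fold change was -0.41 ± 0.13 (95% interval -0.71 to -0.10, limma adjusted p = 0.0594), an interval that does not reach the fold threshold of 0.81 on the log2 scale. Plxna2, which binds Sema6a and, with a neuropilin, class 3 semaphorins, measured 8.6, 7.4 and 6.9 RPKM in the infants against 8.5, 5.6 and 6.3 RPKM in the young adults (NM_008882, chromosome 1, 194619791 to 194816869). These values overlapped, and the log2 fold change was -0.16 ± 0.15 (95% interval -0.51 to 0.19, limma adjusted p = 0.47).

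The 7 plexin genes of the table summed to 52.0 ± 3.0 RPKM in the infants against 43.8 ± 3.7 RPKM in the young adults (SD, n = 3). Plxnb2 supplied 17.8 ± 4.34% of that sum in infants and 8.55 ± 1.26% in young adults, and Plxnb1 supplied 3.32 ± 0.99% and 0.76 ± 0.33%. The share of Plxnd1 was 21.2 ± 0.22% in infants and 18.5 ± 2.03% in young adults. The share of Plxna1, a plexin that pairs with Nrp1, was 33.5 ± 8.41% in infants and 48.6 ± 2.96% in young adults, and the shares of Plxna1, Plxnb1, Plxnb2 and Plxnd1 did not overlap between the ages.

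In the order of mean levels, Sema3c, Sema6a and Sema3f led in infants, with no overlap between neighbours. The next 5 genes, Plxnd1, Sema3g, Plxnb2, Plxna2 and Sema7a, each overlapped the neighbour in rank, and Sema5a and Plxnb1 came last without overlap. In young adults Sema3c stood alone at the top, followed by Sema6a, Sema3f and Sema3g, each overlapping its neighbour. Plxnd1, Plxna2 and Sema7a formed a further group of overlapping genes, and Plxnb2, Sema5a and Plxnb1 each stood apart below it. Sema3g thus passed from the fifth rank to the fourth, and Plxnb2 from the sixth to the eighth.

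The neuropilins, which class 3 semaphorins need as ligand-binding receptors, were held almost wholly by Nrp1. Nrp1 measured 329.4, 462.6 and 312.7 RPKM in the infants against 322.3, 334.0 and 407.0 RPKM in the young adults, with overlapping groups and a log2 fold change of -0.04 ± 0.19 (95% interval -0.48 to 0.40, limma adjusted p = 0.896). Nrp2 stayed at or under 1.2 RPKM in every library, at 0.6, 0.4 and 0.4 RPKM in the infants against 1.1, 0.8 and 1.2 RPKM in young adults. The Nrp2 values did not overlap, with a ratio of means of 2.21 and a log2 fold change of 0.47 ± 0.15 (limma adjusted p = 0.0536), close to the rounding step of the table. Nrp2 reached 1 RPKM only in young adult libraries and thus entered the test through the group where it was higher. Nrp1 made up 99.9 ± 0.05% of the neuropilin sum in infants and 99.7 ± 0.05% in young adults.

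Of the other 12 semaphorin, plexin and neuropilin genes, 0 were called by limma, whereas 4 had an unadjusted p under 0.05, against 40.4% of all genes tested, and 2 an adjusted p under 0.05, against 25.5%. Sema3a, the prototype of the axon-repelling semaphorins, measured 2.2, 1.6 and 1.8 RPKM in the infants against 0.6, 0.9 and 0.9 RPKM in the young adults (log2 fold change -0.67, adjusted p = 0.0157). Sema6b, a transmembrane relative of Sema6a, measured 0.2, 0.3 and 0.2 RPKM in the infants against 1.0, 0.8 and 0.9 RPKM in the young adults (0.62, adjusted p = 0.0182). Neither passed the fold threshold with the pseudocount of 1, although their ratios of means were 0.429 and 3.86. Sema3a reached 1 RPKM only in the infants. Sema6b entered the test only because young adult replicate 1 reached 1.0 RPKM, and it left the test with endothelial marker scaling. Both thus passed the filter through the group where they were higher, and their adjusted p-values are not read as support for a change. Sema4d, the ligand of Plxnb1, measured 1.4, 0.3 and 1.4 RPKM in the infants against 0.1, 0.2 and 0.3 RPKM in the young adults, where infant replicate 2 overlapped the young adults (-0.71 ± 0.26, adjusted p = 0.0786). Sema4c, a ligand of Plxnb2, stayed between 2.8 and 4.6 RPKM in all 6 libraries. Of the remaining genes, Sema6d (16.1 to 21.6 RPKM) and Plxna1 (14.6 to 22.7 RPKM) were abundant, and Plxna4, Plxnc1, Sema3b and Sema4a stayed under 5 RPKM. The plexin and semaphorin genes not listed here, Sema3d and Sema3e among them, had no row under these symbols in the RPKM table.

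**Figure D3:**
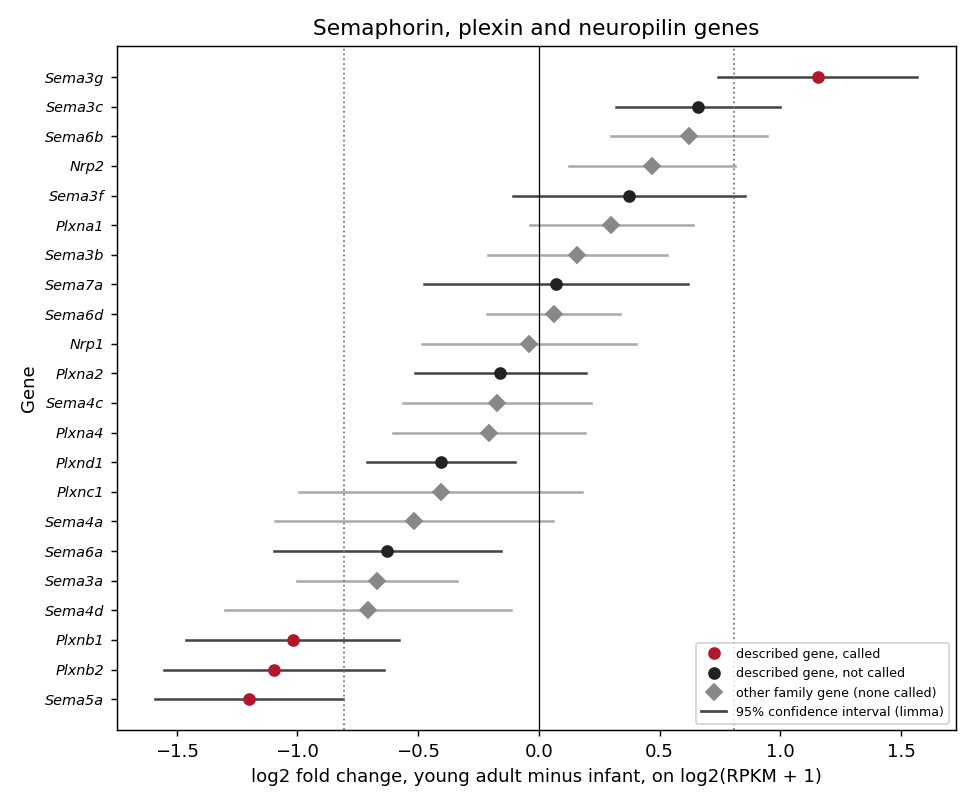
Log2 fold change of young adult over infant EC on the log2(RPKM + 1) scale for the 22 semaphorin, plexin and neuropilin genes, with 95% intervals from limma, the fold threshold as dotted lines and called genes in red. The 4 called genes lie at the ends of the range, from -1.20 for Sema5a to 1.15 for Sema3g.

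Coreceptors that plexins share with other pathways were taken as a further group of 9, of which 7 were tested. Of these 7, 1 was called higher and 1 lower, against 3.33% and 8.10% of all genes tested. In 4 of the 7 the ages did not overlap, against 43.4% of all genes, and no set test was run. Itga1, the alpha1 chain of a collagen receptor, was called higher, from 39.0, 45.0 and 34.9 RPKM in the infants to 80.8, 86.6 and 69.5 RPKM in the young adults (log2 fold change 0.98 ± 0.13, limma adjusted p = 0.00339). Its fold change was under the threshold with endothelial marker scaling (0.52) and with infant replicate 2 alone (0.79). Ptk7, a receptor-like pseudokinase of planar polarity, was called lower, from 9.1, 2.1 and 5.6 RPKM to 0.6, 0.7 and 0.6 RPKM (-1.86 ± 0.37, adjusted p = 0.013), and lost the call without young adult replicate 1 or 2. Itgb1, the beta1 integrin chain that Sema7a engages, measured 112.7, 97.8 and 112.0 RPKM in the infants against 78.9, 75.7 and 75.2 RPKM in the young adults, which did not overlap (-0.48 ± 0.11, adjusted p = 0.0168), under the fold threshold. Kdr, the VEGF receptor that can pair with Nrp1 and with Plxnd1, overlapped at 208.8 to 280.2 RPKM in the infants against 202.6 to 309.4 RPKM in young adults. Nrcam, a neural adhesion molecule, measured 16.2, 0.3 and 13.0 RPKM in the infants against at most 0.1 RPKM in young adults, and its high values in infant replicates 1 and 3 were not shared by replicate 2.

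Of 47 listed genes that relay or limit plexin signals, 41 were tested, and 1 was called higher and 3 lower. These counts were near the 3.33% and 8.10% of all genes, and the median log2 fold change was -0.05 against -0.07 over all genes. The direct targets of the plexin GTPase-activating domain were not called. Rras measured 24.9 to 39.8 RPKM in the infants against 27.0 to 38.4 RPKM in the young adults, and Rap1b measured 63.9 to 86.8 RPKM and 58.8 to 68.8 RPKM. Rnd3, a constantly GTP-bound small GTPase that opposes RhoA, fell from 27.1, 12.2 and 23.4 RPKM to 4.2, 3.9 and 3.5 RPKM, with no overlap (-2.10 ± 0.26, limma adjusted p = 0.00246). Rnd1, a relative that binds Plxnb1, measured 0.8 to 1.4 RPKM in the infants against 1.5 to 1.9 RPKM in young adults and was not called (0.42, adjusted p = 0.08). Farp1, a guanine nucleotide exchange factor known from plexin A signalling, fell by 0.83 on the log2 scale (adjusted p = 0.038) but kept the call in 1 of 6 fits without 1 library, that without infant replicate 2. The plexin domain-containing genes Plxdc1 and Plxdc2, which are not plexins, went opposite ways. Plxdc1, first described in tumour endothelium, rose from 2.0, 3.2 and 1.5 RPKM to 4.6, 5.5 and 9.4 RPKM (1.20 ± 0.27, adjusted p = 0.0178) and lost the call in 3 of the 6 fits, those without infant replicate 1 or 3 or young adult replicate 2. Plxdc2 fell from 5.4, 2.5 and 4.9 RPKM to 0.3, 0.5 and 0.6 RPKM (-1.80 ± 0.23, adjusted p = 0.003) in 6 of 6 such fits. Among the genes that act downstream of class 3 semaphorins in neurons, Dpysl3 and Fyn had adjusted p-values of 0.00874 and 0.00914 at -0.78 and -0.57 on the log2 scale, and Fes had 0.03 at 0.42, all under the fold threshold. Dpysl2 was at 0.25 (adjusted p = 0.206), without overlap between the ages.

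The 3 genes that fell were lowest, among the infants, in a library that also stood apart in its markers of other cell types. Infant replicate 2 had 0.305 times the fibroblast marker sum of the mean of replicates 1 and 3, and 0.316 times the mural marker sum, which was 234.8, 75.7 and 244.1 RPKM in the infants against 12.7, 15.7 and 18.2 RPKM in the young adults. In the same library Plxnb1 measured 0.537 times, Plxnb2 0.593 times and Sema5a 0.684 times the mean of the other infants, whereas Sema6a measured 1.59 times, Sema7a 1.85 times and Sema3f 1.48 times that mean. The erythroid marker sum was 0.157 times and the Schwann cell sum 0.222 times that of the other infants there. Higher there were the sums of endothelial (1.42 times), aerocyte (1.67 times), epithelial (1.52 times), leukocyte (1.41 times), lymphatic EC (2.04 times) and platelet markers (2.28 times). Of the 10 genes, 5 were lowest and 3 were highest in infant replicate 2 among the infants. Over all genes tested, infant replicate 2 correlated at 0.963 and 0.964 with replicates 1 and 3, which correlated at 0.987 with each other. Plxnb1, Plxnb2, Sema5a, Sema6a, Sema7a and Plxnd1 in infant replicate 2 were above all young adult libraries, as were the fibroblast and mural sums. The shares of all genes that were lowest, highest or above all young adults in that library were not computed, so these counts only describe the genes. No fibroblast or mural marker was at 0 in all young adult libraries. The part of RNA from these cell types in the falls was not tested.

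**Figure D4:**
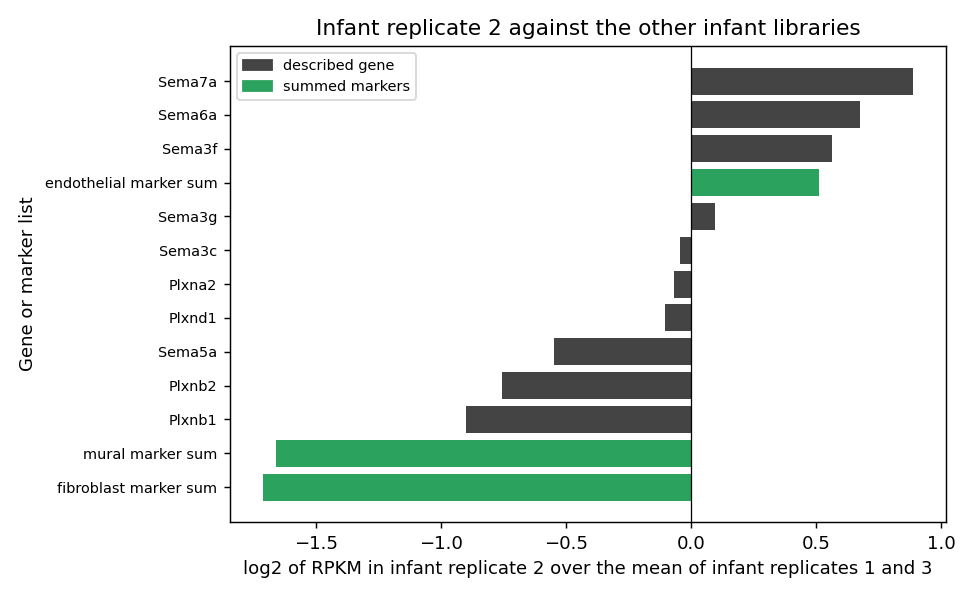
Log2 of the RPKM in infant replicate 2 over the mean of infant replicates 1 and 3, for the 10 described genes (grey) and for summed endothelial, mural and fibroblast markers (green). Plxnb1, Plxnb2 and Sema5a lie on the side of the fibroblast and mural markers, and Sema7a, Sema6a and Sema3f on the side of the endothelial markers.

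With infant replicate 2 as the only infant library against the 3 young adult libraries, a comparison chosen after seeing the data and fitted on the assumption that the lone library varies like the young adults, 2.57% of genes were called lower and 0.949% higher. All 4 calls were lost. Sema3g (1.09, limma adjusted p = 0.119) and Sema5a (-0.92, adjusted p = 0.0882) stayed past the fold threshold and missed the adjusted p, whereas Plxnb2 (-0.65, adjusted p = 0.121) and Plxnb1 (-0.66, adjusted p = 0.134) missed both. Sema6a was the 1 described gene called lower in that fit, at -1.07 (adjusted p = 0.0407), and 0 were called higher.

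When each library was scaled to the geometric mean of its 12 endothelial markers, the median of all genes moved to -0.46, and 8.0% of the calls were higher instead of 29.1%. On that scale 5 of the 10 genes were called lower and 0 higher, against 18.2% and 1.58% of all genes. Sema6a measured 60.3, 65.4 and 52.1 in infants and 25.6, 26.8 and 29.8 in young adults in scaled RPKM, so that infant replicate 2 no longer stood out, and it was called at -1.08 ± 0.16 (limma adjusted p = 0.0011). Plxnd1 was called as well, at -0.83 ± 0.21 (adjusted p = 0.0118). Relative to the median of all genes, Sema6a stood at -0.62 on that scale and -0.56 in unscaled RPKM. Plxnd1 stood at -0.37 and -0.33. What brought the gained calls was not tested. Sema5a (-1.50), Plxnb2 (-1.49) and Plxnb1 (-1.24) remained called. Sema3g was 0.72 ± 0.20 (adjusted p = 0.0177), under the fold threshold, and 1.18 above the median of all genes, near its 1.23 above the median in unscaled RPKM. Sema3c came to 0.20 with overlapping groups, and Sema3f turned to -0.08. Quantile normalization moved the median to 0.04 and the higher calls to 46.5%, and rescaling without the globin genes gave -0.23 and 17.7%.

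Ratios of ligands and receptors within a library do not depend on its scaling. Of 8 such log2 ratios, 5 did not overlap between the ages, each with an exact two-sided permutation p of 0.1 and a Benjamini-Hochberg adjusted p of 0.16, where 0.1 is the smallest p that 3 against 3 libraries allow. Of single genes tested, 43.4% did not overlap, and the share for ratios of other gene pairs was not computed. The pairs were chosen with earlier results known, and Sema3g, Plxnb1 and Plxnb2 in them were already called. The ratio of Sema3c to its plexin Plxnd1 was 2.85, 2.94 and 2.90 in infants and 3.89, 4.48 and 3.66 in young adults, on the log2 scale. Sema3g over Sema3f was -1.14, -1.60 and -1.14 in infants and -0.32, 0.09 and -1.11 in young adults, where young adult replicate 3 came close to the infants. Plxnb2 over Plxnd1 was lower in young adults by 0.84 on the log2 scale, Plxnb1 over Plxnb2 by 1.14 and Nrp1 over Nrp2 by 1.19. These ratios hold no pseudocount. Plxnb1, at 0.2 to 0.5 RPKM in young adults, and Nrp2, at 0.4 to 1.2 RPKM in all libraries, lie close to the rounding step of the table. Sema3g over its receptor Nrp2 differed by 0.08 with an exact permutation p of 0.9, Sema6a over Plxna2 by -0.46 (p = 0.6) and Sema7a over Itgb1 by 0.58 (p = 0.2), and these 3 overlapped.

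The genes with the most similar profile were found by the mean absolute difference of centred log2(RPKM + 1) profiles over the 6 libraries, in which libraries share their depth and cell make-up. Nearest to Sema3c were Gna14 (0.03) and Lpcat2 (0.04), nearest to Sema3g were Kit (0.10), one of the general capillary markers, and Hpcal4 (0.11), and nearest to Sema3f were Rps6ka1 (0.06) and Cx3cl1 (0.08). Cald1, which encodes the actin-binding caldesmon, was nearest to Plxnb1 (0.03) and second to Plxnb2 (0.05), after Spc24 (0.04). Oat (0.04) was second to Plxnb1. Fat1 and 3632451O06Rik (both 0.06) were nearest to Sema5a, Ckmt1 and Tcap (both 0.06) to Sema6a, and Rgs12 (0.06) and Nudt12 (0.08) to Sema7a. Zfp566 (0.04) and Adamts1 (0.04) were nearest to Plxna2, and Hnrnpll (0.03) and Fbxo33 (0.04) to Plxnd1.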

How the data were processed

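EC were sorted from lungs of infant and young adult mice, and the library titles gave age group and replicate. Per the labels and the study's methods, RNA isolated with PicoPure was turned into libraries by the SMARTer Ultra Low kit, which does not keep strand, and the authors aligned reads to mm10 with STAR on the RefSeq annotation and tested counts with DESeq2. The version of STAR and the program behind the RPKM are not given in the sources used here. The deposited table held the authors' RPKM, rounded to 1 decimal, for 17241 RefSeq transcripts. Counts were not analysed here, so depth is unknown and no counting error is given. Rows with symbols turned into dates (24) were restored, and 2842 genes with more than 1 row were kept by the row with the highest mean.

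Because the values were RPKM, a count test was replaced by limma 3.58.1 (R 4.3.3) on log2(RPKM + 1), with lmFit, eBayes with an intensity trend and age as the only term. The 12458 genes that reached 1 RPKM in any library entered the test, with Benjamini-Hochberg adjustment. Some, such as Plxnb1, Sema3a, Sema6b, Nrp2, Ptk7 and Plxdc2, reached it only in the age group where they were higher. The script was tested on simulated data. The pseudocount of 1 understates fold changes of genes near or under 1 RPKM. Calls required an adjusted p under 0.05 and a fold over 1.75. Positions and promoter windows are those of RefSeq for GRCm38.p6, whose coordinates are shared by mm10, and exon overlaps are from GENCODE.

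All described genes were named, other family genes by their level, coreceptor and signalling genes if called or as background, and for each described gene the 2 nearest profiles. Sema4c, Itgb1, Kdr, Nrcam, Rras, Rap1b, Rnd1, Dpysl2, Dpysl3, Fes and Fyn were added after their values were seen. The members and lists were chosen with earlier results of these data known. Marker sums of epithelial, leukocyte, erythroid, platelet, lymphatic, mesothelial, Schwann, venous and aerocyte lists are given in the closing section. Alternatives covered pseudocounts, filters, scalings, the limma settings, thresholds, transcript rows, a replicate block and leaving out each library, and 1 alternative, infant replicate 2 alone against the young adults, was added after seeing the data.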

Additional observations from a re-analysis of the deposited data

How the results depend on the processing

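The 10 fold changes were recomputed under 24 alternatives each. Of these 240 values, 213 kept their direction and side of the threshold, 13 lost and 7 gained a call, and 7 changed sign. Genes called, 1424 with all libraries, numbered 578 with a pseudocount of 5, 2452 with endothelial marker scaling, 176 with limma's treat, 3176 on adjusted p alone, 842 to 1874 without 1 library, and 415 with infant replicate 2 alone. Described genes called higher (1) were 0 with endothelial scaling, 0 with treat, 2 on adjusted p alone, 1 to 2 without 1 library and 0 with infant replicate 2 alone. Described genes called lower (3) were 0 with a pseudocount of 5, 5 with endothelial scaling, 0 with treat, 3 to 4 without 1 library and 1 with infant replicate 2 alone. With the pseudocount of 5 the fold changes were -0.51 for Sema5a, -0.33 for Plxnb1 and -0.70 for Plxnb2, which shows the shrinkage of low values, and Plxnb1 lost the call under quantile normalization (-0.64). Other family genes called (0) were 3 with a pseudocount of 0.1, 2 with quantile normalization, 2 with endothelial scaling, 1 with array weights, 2 on adjusted p alone and 0 to 1 without 1 library. Plexin signalling genes called (4) were 1 with a pseudocount of 5, 9 with endothelial scaling, 1 with treat, 9 on adjusted p alone and 2 to 5 without 1 library. Signs turned for Sema3f (-0.077, endothelial scaling) and Sema7a (-0.093 without globin genes, -0.32 with endothelial scaling, -0.45 with infant replicate 2 alone, and -0.12 to 0.33 without 1 library), and the log2 ratio of Sema3g to Nrp2 ranged from -0.29 to 0.35 without 1 library. The cause was not tested where none is given. Replicate numbers did not pair the libraries: deviations from the group means correlated at 0.03, -0.11 and -0.02 between libraries of the same number. With a replicate block 1371 genes were called, among them the same 4 described genes. With 3 libraries a group and RPKM rounded to 1 decimal, differences under 1 RPKM are poorly resolved.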

Other observations

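Markers of EC subtypes and of other cell types gave the following summed RPKM. Venous EC markers, with Vwf and Nr2f2 in the list, summed to 67.8 to 80.3 RPKM in infant and 200.8 to 300.6 RPKM in young adult libraries, and 3 of 5 were called higher and 1 lower. Aerocyte markers summed to 1436 to 2476 RPKM in infant and 1588 to 2322 RPKM in young adult libraries. Lymphatic EC markers summed to 89.0 to 192.7 RPKM in infant and 268.5 to 411.3 RPKM in young adult libraries, with 1 of 4 called higher. The median log2 fold change of these 4 genes was -0.285, so the higher sum was not shared by the list as a whole.

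Epithelial markers summed to 6401 to 11209 RPKM in infant and 1791 to 8212 RPKM in young adult libraries, with 1 of 9 called higher and 4 lower. Leukocyte markers summed to 320.9 to 519.0 RPKM and 140.9 to 557.8 RPKM, with 2 of 8 called lower, and erythroid markers to 5015 to 46627 RPKM and 486.2 to 816.2 RPKM, with all 5 called lower. Platelet markers summed to 4.7 to 16.3 RPKM and 7.4 to 14.2 RPKM. The Schwann cell pair summed to 1.1 to 5.3 RPKM and 0.9 to 1.3 RPKM, with 1 called lower, and the mesothelial marker Msln measured 2.4 to 4.5 RPKM and 0.0 to 0.2 RPKM and was called lower. The part of these cells in the levels of the described genes was not tested.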
